A study of Mus musculus with 6 samples.

Results

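The 42 mouse genes described here encode proteins of ER-associated degradation (ERAD) together with the ATPase VCP and its cofactors. They were listed by symbol, with earlier results of these data known, and each was placed by hand, from general knowledge of its role, in 1 of 6 steps although some proteins act in several, with 6 genes for recognition of the misfolded protein, 9 for retrotranslocation, 10 for ubiquitination, 13 for VCP and cofactors, 1 for deglycosylation and 3 for the BAG6 complex. All 42 matched a row of the 49315 in the deposited count table, and 41 were among the 12274 genes with enough counts to be tested. The libraries were made from RAW264.7 cells, a macrophage line of mouse origin with the genotype given as WT, kept for 24 h either in the vehicle DMSO or in 4 μg/mL of SKI-II, a small molecule first known as a sphingosine kinase inhibitor. Each condition had 3 RNA-seq libraries, numbered 1 to 3. The study examined VCP as a possible target of SKI-II, and the comparison asks how the transcripts of the pathway that VCP serves differed between treated and vehicle cells.

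In ERAD, a protein that fails to fold in the endoplasmic reticulum (ER) is marked by trimming of its glycans, recognized by lectins, passed through the membrane at a ubiquitin ligase complex, and tagged with ubiquitin on the cytosolic side. VCP, also called p97, then pulls the tagged protein out of the membrane with the energy of ATP and hands it to the proteasome, and its many cofactors decide which substrate it takes. Several genes of the pathway are known targets of the unfolded protein response, the transcriptional program that ER stress switches on through the factors ATF6, XBP1 and ATF4.

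Macrophages make and secrete many proteins, and the markers of the type were present in these libraries. All 10 macrophage markers examined, among them Csf1r, Cd68 and Spi1, passed the filter on low counts, while none of 10 markers of other cell types did and 7 of those had no count in any library. Of the macrophage markers, 1 rose and 4 fell with SKI-II, beside 18.4% higher and 19.7% lower of all genes tested. Cd14, a receptor for lipopolysaccharide, rose by 1.41 ± 0.17 on the log2 scale (adjusted p = 0.000273), and the largest falls were those of the lysozyme gene Lyz2 (-1.26 ± 0.34, adjusted p = 0.0172), the integrin gene Itgam (-0.93 ± 0.22, adjusted p = 0.00781) and Adgre1, for the surface marker F4/80 (-0.92 ± 0.19, adjusted p = 0.00451). The summed level of the 10 markers was 148090 to 214100 normalized counts with DMSO and 92116 to 129850 with SKI-II. Lyz2 had the largest part in that fall, with means of 109820 with DMSO and 45951 with SKI-II. The other 9 summed to 57534 to 64415 with DMSO and 64463 to 68567 with SKI-II, a sum computed after seeing the data. Cd14, with means of 7668 and 20424, raised the sum of these 9, while Mpeg1, Itgam and Adgre1 among them fell. The libraries held 12495957 to 20050677 counts, and the share of mitochondrial transcripts was 1.07 to 1.25% with DMSO and 1.38 to 1.71% with SKI-II. The part of these differences in the results below was not tested. In such bulk samples, fewer cells of a kind and less RNA per cell cannot be told apart.

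The promoters of 4 expressed members are shown because they hold the response elements of the unfolded protein response, read from RefSeq sequence of GRCm38.p6. Each line gives the 150 bases before the start of transcription on the strand of the gene, and the capitals mark the bases that the element fixes. Syvn1 encodes the ubiquitin ligase HRD1 and holds an ERSE, the ER stress response element (letters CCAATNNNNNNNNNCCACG), which binds ATF6 together with the factor NF-Y (chr19:6046426-6046575, plus strand). Herpud1, for the HRD1 partner HERP, holds an ERSE-II (ATTGGNCCACG, chr8:94386279-94386428, plus strand). Vcp (chr4:43000508-43000657, minus strand) and the conjugating enzyme gene Ube2j1 (chr4:33031230-33031379, plus strand, match on the opposite strand) hold a UPRE, the unfolded protein response element bound by XBP1 and ATF6 (TGACGTGG).
Syvn1: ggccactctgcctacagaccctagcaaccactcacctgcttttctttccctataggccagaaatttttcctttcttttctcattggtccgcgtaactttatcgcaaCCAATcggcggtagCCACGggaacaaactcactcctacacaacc
Herpud1: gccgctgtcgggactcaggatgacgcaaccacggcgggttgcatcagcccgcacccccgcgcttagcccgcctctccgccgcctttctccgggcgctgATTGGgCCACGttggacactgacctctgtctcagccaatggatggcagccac
Vcp: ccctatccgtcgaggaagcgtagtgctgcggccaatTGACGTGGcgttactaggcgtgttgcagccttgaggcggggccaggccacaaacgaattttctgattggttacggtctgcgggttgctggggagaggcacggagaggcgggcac
Ube2j1: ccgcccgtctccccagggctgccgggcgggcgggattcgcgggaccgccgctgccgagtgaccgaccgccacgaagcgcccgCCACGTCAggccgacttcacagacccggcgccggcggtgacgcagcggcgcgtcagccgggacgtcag

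Promoter windows reaching from 250 bases before to 50 bases after a start were given for 36 of the 42 genes, the exceptions being Erlec1, Derl1, Rnf139, Rnf5, Ube2g2 and Aup1, and were searched on both strands. Derl2, Rhbdd1, Ube2j2, Svip and Get4 had 2 windows each and Ubxn6 had 3, all of which were searched. The ERSE was found in Syvn1 and Derl3, against 0.137% of all 27025 genes with a promoter window, and the ERSE-II in Herpud1, against 0.0444%. Among the genes tested for expression, which do not include Derl3, the shares were 0.161% for the ERSE and 0.086% for the ERSE-II. The UPRE was found in Vcp and Ube2j1, against 0.714% of all genes and 1.04% of the genes tested for expression. The short CCACG core, whose letters lie within the ERSE, the ERSE-II and, read on the other strand, the UPRE, was found in 23 of the 36, or 63.9%, against 35.5% of all genes and 52.8% of the genes tested for expression. The CARE (TGATGNAA), bound by ATF4 and CHOP, was found in Herpud1, Faf2 and Yod1, against 4.51% of all genes and 2.83% of the genes tested for expression. The ARE of Nrf2 (TGACNNNGC) was found in 7 members, or 19.4%, against 3781 of the 27025 genes and 1579 of the 9306 tested for expression, and its matches in Vcp and at 1 of the 2 places in Ube2j1 overlap the UPRE. A match describes letters in the window, not a site in use.

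**Figure D1:**
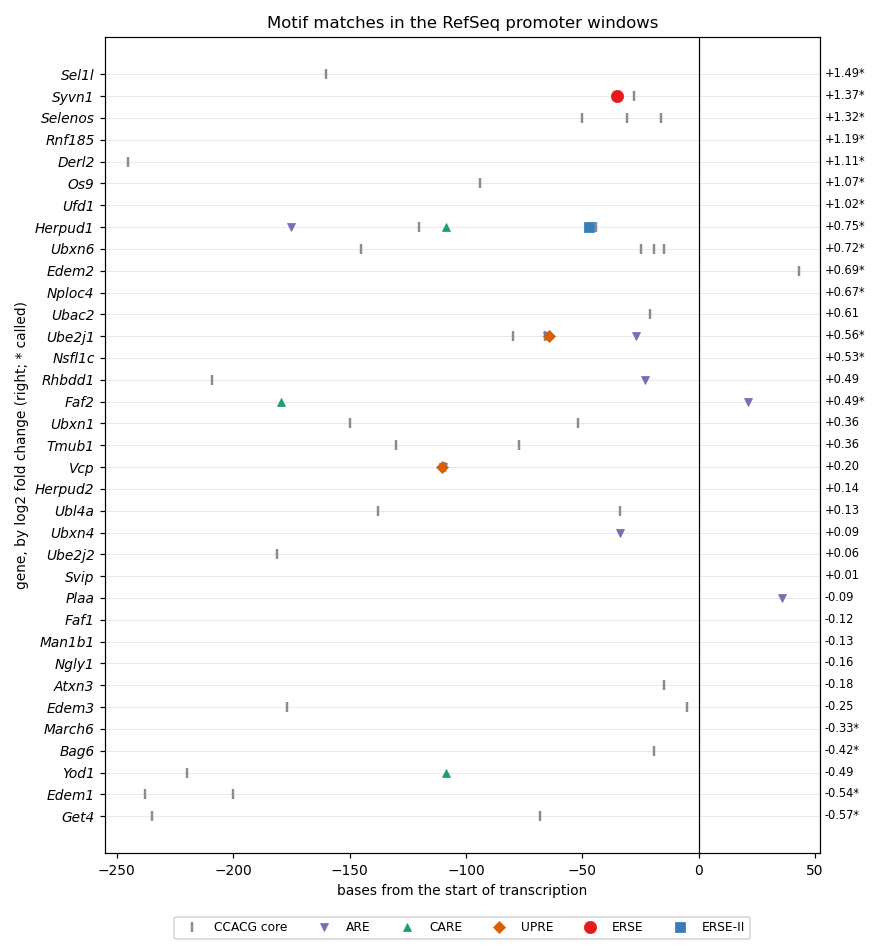
Position of each motif match (x axis, bases from the start of transcription) in the promoter windows of the 35 members that were tested and had a window (rows, ordered by log2 fold change, which is printed at the right with * for called genes). The ERSE of Syvn1 and the ERSE-II of Herpud1 lie within 52 bases of the start, and CCACG cores occur in genes that rose and in genes that fell.

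With SKI-II, more members rose than fell, and those that rose most were Sel1l, Syvn1 and Selenos, 3 genes of the ligase complex in the ER membrane. By the edgeR quasi-likelihood fit, adjusted over all 12274 genes, 18 of the 41 members tested, or 43.9%, were higher with SKI-II at an adjusted p below 0.05, beside 18.4% of all genes tested. Another 4, or 9.76%, were lower, beside 19.7% of all genes, and 19 passed in neither direction. The count of lower members was 1 without SKI-II 2 and 2 without DMSO 2 or DMSO 3. The 7 members that were also beyond a log2 fold change of 1 were all higher (Sel1l, Syvn1, Selenos, Rnf185, Derl2, Os9 and Ufd1), which is 17.1% of those tested beside 8.28% of all genes, and none was lower beyond 1, beside 7.44%. Ufd1 fell below 1 without DMSO 1, DMSO 3 or SKI-II 1 (0.93 to 0.98, still called), and Herpud1 passed 1 without DMSO 3 (1.09). The 3 libraries of each group did not overlap for 20 members that were higher and 5 that were lower, beside 24.8% and 25.5% of all genes. The median log2 fold change was 0.36 over the members and 0.00 over all genes tested, and the members ranged from -0.57 for Get4 to 1.49 for Sel1l. The methods state that cells were treated as for the quantitative PCR, which used biological replicates, and that experiments were repeated independently. Neither they nor the labels tie each library to a culture of its own, so the p-values measure the spread between these libraries, whatever its source.

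Beside 18.4% higher and 19.7% lower of all genes tested, 5 of 8 tested retrotranslocation members rose and none fell, with a median log2 fold change of 0.81. Recognition had 3 that rose and 1 that fell of 6 (median 0.28), ubiquitination 5 and 1 of 10 (median 0.42), and VCP and cofactors 5 and 0 of 13 (median 0.20). In the BAG6 complex 0 rose and 2 fell of 3 (median -0.42), or 1 without DMSO 2, DMSO 3 or SKI-II 2, and Ngly1, the deglycosylation gene, did not pass the test. Differences between steps were not tested. Summed over its genes, the normalized counts of retrotranslocation came to 14316 ± 1937 with the vehicle and 28232 ± 1300 with SKI-II (SD, n = 3 each), a ratio of 1.97, and those of the BAG6 complex to 8400 ± 617 and 6471 ± 213, a ratio of 0.770. Genes with many counts weigh most in such sums, here Sel1l (means 3482 and 9805), Derl1 (4700 and 8520) and Bag6 (6470 and 4846). A normalized count is the count scaled to the mean effective library size, so that libraries can be compared. The sums of recognition, ubiquitination and VCP with its cofactors had ratios of 1.18, 1.21 and 1.21, and the sum over all members was 77552 ± 5907 with the vehicle and 100473 ± 4675 with SKI-II.

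**Figure D2:**
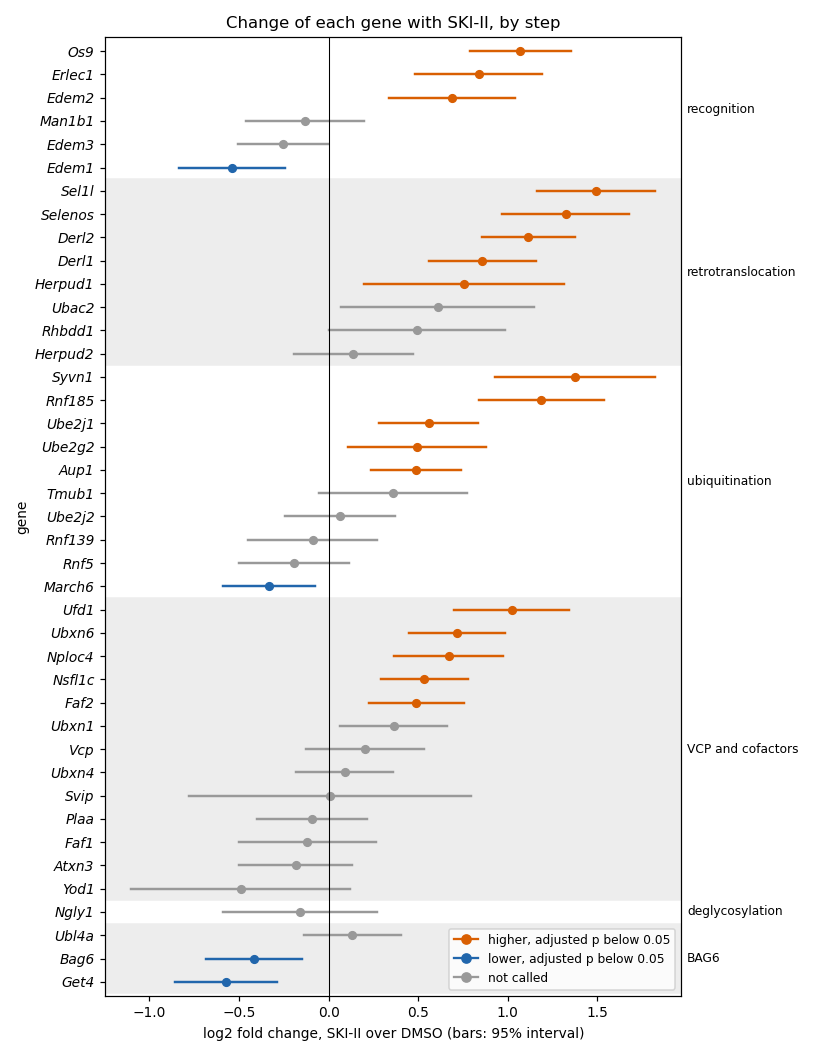
Log2 fold change of each tested member (points, x axis, SKI-II over DMSO) with its 95% interval (bars), grouped by step. All 8 retrotranslocation members lie above 0, with 5 of them called, whereas Bag6 and Get4 lie below it.

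**Figure D3:**
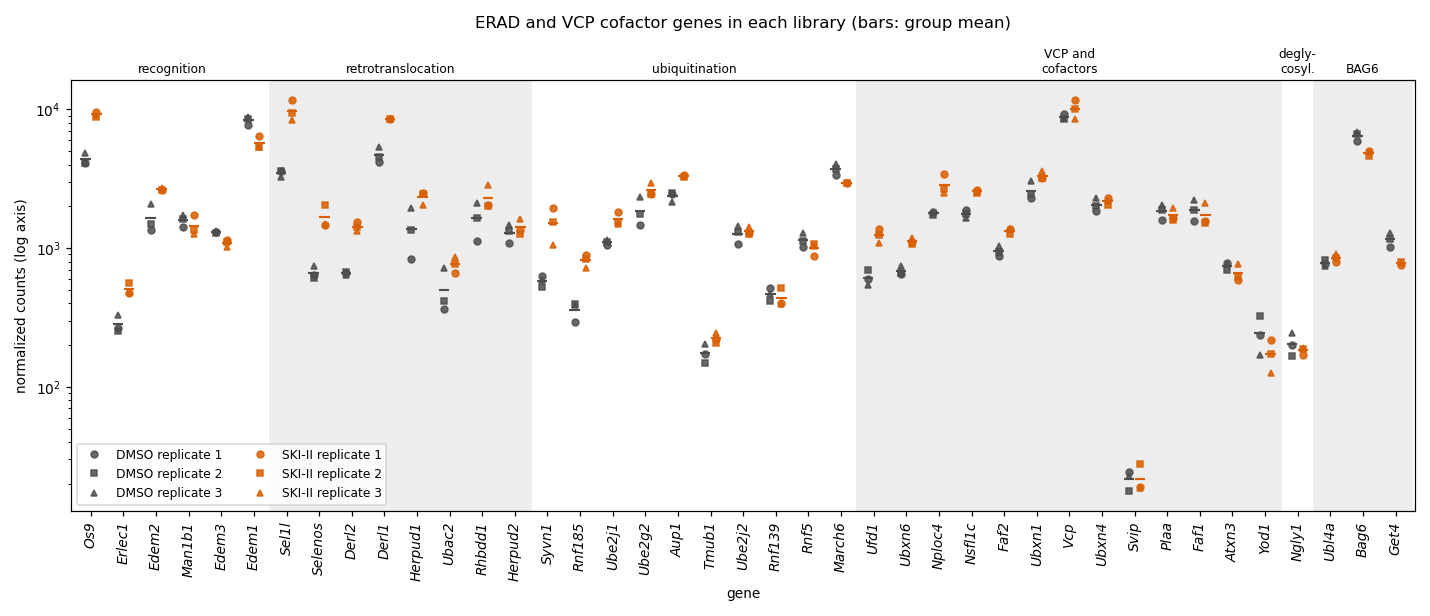
Normalized counts (y axis, log scale) of each tested member in the 3 DMSO and the 3 SKI-II libraries (points) with group means (bars). The 2 groups do not overlap for any of the 22 members called from these same libraries, and Svip sits far below the other members.

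At the recognition step both lectin genes and Edem2 rose, and Edem1 fell. Os9 (chr10:127095650-127121131, gene positions being those of GENCODE M21 on GRCm38) encodes a lectin that binds trimmed glycans and delivers the misfolded protein to SEL1L. It measured 4131, 4135 and 4882 normalized counts in DMSO 1 to 3 and 9593, 8807 and 9183 in SKI-II 1 to 3. All the treated libraries lay far above all the vehicle libraries, a log2 fold change of 1.07 ± 0.13 (SE, n = 3 per group, edgeR adjusted p = 0.000201), and the other fold changes are likewise given with their SE. Erlec1, the related lectin, measured 266, 254 and 329 with DMSO and 477, 563 and 479 with SKI-II. It too was higher in every treated library, by 0.84 ± 0.16 on the log2 scale (adjusted p = 0.00268).

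The EDEM proteins trim mannose from the glycan and so start the exit signal, and of their 3 genes 1 fell, 1 rose and 1 did not pass the test. Edem1 (chr6:108828641-108859356) measured 7699, 8527 and 8829 with DMSO and 6458, 5394 and 5385 with SKI-II. Each treated library was below each vehicle library, and the log2 fold change was -0.54 ± 0.13 (adjusted p = 0.00998), a call lost without SKI-II 2 (adjusted p = 0.0522). Edem2 rose instead, from 1361, 1493 and 2079 to 2627, 2605 and 2712. The vehicle libraries of Edem2 were more scattered than the treated ones and lay below them all (log2 fold change 0.69 ± 0.16, adjusted p = 0.00743). Edem3 averaged 1306 ± 13.7 with DMSO and 1096 ± 66.0 with SKI-II (SD, n = 3) and its groups did not overlap, but it did not pass the test (adjusted p = 0.104). Man1b1, the ER mannosidase that acts before them, gave a log2 fold change of -0.13 ± 0.15 (adjusted p = 0.519).

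At the retrotranslocation step the largest difference among all members was that of Sel1l (chr12:91806043-91849157), the scaffold that joins the lectins to the HRD1 ligase. Its values were 3576, 3587 and 3282 with DMSO and 11657, 9424 and 8334 with SKI-II. The vehicle libraries were close to one another, and even the lowest treated library was well above them (log2 fold change 1.49 ± 0.15, adjusted p = 7.4e-05, a fold of 2.82). Selenos, a selenoprotein that tethers VCP to the membrane, measured 644, 606 and 745 with DMSO and 1459, 2035 and 1498 with SKI-II. The treated libraries were all higher, with SKI-II 2 the highest (log2 fold change 1.32 ± 0.16, adjusted p = 0.000217).

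Derlins are rhomboid-like proteins that form part of the passage through the membrane. Derl2 measured 664, 673 and 643 with DMSO and 1532, 1429 and 1329 with SKI-II, and Derl1 measured 4146, 4569 and 5386 against 8465, 8518 and 8577. Neither gene overlapped between the groups, and the vehicle libraries of Derl1 varied more than its treated ones. Their log2 fold changes were 1.11 ± 0.12 (adjusted p = 9.6e-05) and 0.86 ± 0.13 (adjusted p = 0.00093). Derl3, the family member whose promoter holds an ERSE, had 1 count in DMSO 1 and 0 elsewhere. A count of 0 over the SKI-II libraries allows up to 3 counts in their 51007778, so Derl3 was not detectable at this depth.

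Herpud1, whose promoter with the ERSE-II is printed above, had the widest standard error of the 18 members that rose. It measured 841, 1349 and 1959 with DMSO and 2492, 2464 and 2044 with SKI-II. The highest vehicle library came close to the lowest treated one, and the vehicle libraries were spread more widely than the treated ones. The log2 fold change was 0.75 ± 0.25 (adjusted p = 0.0382). The call was lost without DMSO 1, where the change fell to 0.48 (adjusted p = 0.0536), and also without DMSO 2, SKI-II 1 or SKI-II 2 (adjusted p = 0.103 to 0.115). Its paralog Herpud2 gave 0.14 ± 0.15 (adjusted p = 0.504).

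Ubac2 and Rhbdd1 did not pass the edgeR test. Ubac2 encodes a membrane protein that holds FAF2 in the ER, and measured 362, 416 and 725 with DMSO and 658, 769 and 865 with SKI-II. DMSO 3 overlapped the treated libraries, and the change of 0.61 ± 0.24 (adjusted p = 0.0724) became 0.97 without that library (adjusted p = 0.00183). Without DMSO 1 the change was 0.41 (adjusted p = 0.18). With all libraries Ubac2 was called by DESeq2 (adjusted p = 0.0407), limma-voom (adjusted p = 0.0485), library size alone (adjusted p = 0.0491), without a filter (adjusted p = 0.00259) and with the replicate block (adjusted p = 0.00797). Rhbdd1, an intramembrane protease, gave 0.49 ± 0.22 (adjusted p = 0.107), and was called without a filter (adjusted p = 0.00802), with the replicate block (adjusted p = 0.0102) and without DMSO 3 (0.72, adjusted p = 0.0209). Its change was smaller without DMSO 1 (0.27, adjusted p = 0.271) and without SKI-II 3 (0.31, adjusted p = 0.311). DMSO 3 was the highest vehicle library for 28 of the 41 members tested.

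Among the ubiquitin ligases, Syvn1 and Rnf185 rose. Syvn1 (chr19:6046576-6053712) measured 632, 528 and 591 with DMSO and 1935, 1552 and 1059 with SKI-II. Every treated library was higher, though SKI-II 1 and SKI-II 3 differed widely (log2 fold change 1.37 ± 0.20, adjusted p = 0.00069). Rnf185 measured 294, 393 and 389 with DMSO and 890, 837 and 724 with SKI-II. It was higher in all treated libraries by 1.19 ± 0.16 on the log2 scale (adjusted p = 0.000374), whereas its close relative Rnf5 gave -0.19 ± 0.14 (adjusted p = 0.299).

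March6, a ligase of the ER membrane known for degrading enzymes of sterol synthesis, moved the other way. It measured 3392, 3716 and 4050 with DMSO and 2925, 2965 and 2966 with SKI-II. The treated libraries were nearly equal and below all the vehicle ones (log2 fold change -0.33 ± 0.12, adjusted p = 0.0441), but the call was lost without any 1 library other than DMSO 1 (adjusted p = 0.0738 to 0.132). The call was also lost with all libraries when no filter was used (adjusted p = 0.115). Rnf139, a ligase of the same membrane, gave -0.09 ± 0.16 (adjusted p = 0.696). Of the exon bases of Rnf139, 22.3% also belong to Tatdn1 on the opposite strand, which rose by 0.76 on the log2 scale.

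Of the conjugating enzymes that load the ligases with ubiquitin, Ube2j1, the partner of HRD1 with a UPRE in its promoter, measured 1046, 1112 and 1145 with DMSO and 1819, 1555 and 1487 with SKI-II. It rose by 0.56 ± 0.12 with no overlap (adjusted p = 0.00601), and Ube2j2 gave 0.06 ± 0.14 (adjusted p = 0.758). Ube2g2 measured 1480, 1756 and 2353 with DMSO and 2436, 2462 and 2971 with SKI-II. Its groups nearly touched, and the call (0.49 ± 0.17, adjusted p = 0.0463) was lost without any 1 library other than DMSO 3 (adjusted p = 0.0695 to 0.158).

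Aup1, the membrane protein that recruits UBE2G2, measured 2470, 2499 and 2141 with DMSO and 3378, 3274 and 3311 with SKI-II. It was higher throughout by 0.49 ± 0.11 on the log2 scale (adjusted p = 0.00777). Of the exon bases of Aup1, 23.0% also belong to Htra2 on the opposite strand, which fell by 0.68 on the log2 scale. The sources used here name no strand setting for the counting, and without strand, reads from overlapping genes cannot be told apart. Tmub1, a ubiquitin-like membrane protein, averaged 175 with DMSO and 225 with SKI-II without overlap and did not pass the test (adjusted p = 0.157).

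Vcp itself (chr4:42979963-43000507), with its UPRE shown above, did not pass the test. Its libraries measured 9242, 8492 and 8709 with DMSO and 11775, 10080 and 8576 with SKI-II. SKI-II 3 lay inside the vehicle range while the other two treated libraries lay above it (log2 fold change 0.20, 95% interval -0.12 to 0.53, adjusted p = 0.307). The interval runs from a decrease to an increase, so no direction can be given. Without SKI-II 1 the change was 0.08 (adjusted p = 0.707), and without SKI-II 3 it was 0.31 (adjusted p = 0.141).

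Both genes of the UFD1-NPL4 heterodimer, the cofactor that lets VCP bind ubiquitin chains, rose. Ufd1 (chr16:18811779-18835261) measured 594, 700 and 543 with DMSO and 1380, 1250 and 1095 with SKI-II. Nploc4, which encodes NPL4, measured 1817, 1735 and 1836 with DMSO and 3400, 2676 and 2500 with SKI-II. Both were higher in every treated library, Ufd1 by 1.02 ± 0.14 (adjusted p = 0.000542) and Nploc4 by 0.67 ± 0.14 on the log2 scale (adjusted p = 0.00386). Ufd1 shares 4.82% of its exon bases with Cdc45 on the opposite strand, which fell by 2.09 on the log2 scale.

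The other cofactors were divided. Faf2, the UBX-domain protein UBXD8 that brings VCP to the ER and to lipid droplets, measured 882, 934 and 1038 with DMSO and 1366, 1264 and 1374 with SKI-II. It rose by 0.49 ± 0.12 (adjusted p = 0.00977), a call lost without DMSO 2 (adjusted p = 0.0569), while Faf1 gave -0.12 ± 0.17 (adjusted p = 0.623). Nsfl1c, for the membrane fusion cofactor p47, measured 1880, 1764 and 1661 with DMSO and 2643, 2502 and 2536 with SKI-II. It was higher in all treated libraries by 0.53 ± 0.11 (adjusted p = 0.00402).

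Ubxn6, for the cofactor UBXD1, measured 646, 658 and 744 with DMSO and 1104, 1077 and 1181 with SKI-II, again with no overlap (0.72 ± 0.12, adjusted p = 0.00147). Of its exon bases, 81.8% also belong to the DNA replication gene Chaf1a on the opposite strand, which fell by 1.90 on the log2 scale, so its counts are the most exposed to those of a neighbour. Without Ubxn6 the VCP step had 4 that rose of 12. Ubxn1 gave 0.36 ± 0.13 with no overlap between the groups and did not pass (adjusted p = 0.0564), and without DMSO 3 it was 0.49 (adjusted p = 0.0171). DESeq2 (adjusted p = 0.0382), library size alone (adjusted p = 0.0287), the stricter count filter (adjusted p = 0.0407) and the block (adjusted p = 0.0177) also called it. Without DMSO 1 the change of Ubxn1 was 0.26 (adjusted p = 0.17).

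No difference passed the test for the remaining cofactors. These were Ubxn4 (log2 fold change 0.09, adjusted p = 0.599), the phospholipase A2 activating protein Plaa (-0.09, adjusted p = 0.631) and the deubiquitinases Yod1 (-0.49 ± 0.27, adjusted p = 0.188) and Atxn3 (-0.18 ± 0.14, adjusted p = 0.332). Yod1 gave -0.24 without DMSO 2 (adjusted p = 0.58) and -0.70 without DMSO 3 (adjusted p = 0.0561). Svip, a small inhibitor of ERAD that competes for VCP, had 17.7 to 27.7 normalized counts in any library and gave 0.01 with a 95% interval of -0.78 to 0.80, so little can be said of it at this depth. Ngly1, the enzyme that removes the glycan after export, averaged 205 with DMSO and 183 with SKI-II (-0.16 ± 0.19, adjusted p = 0.547).

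The BAG6 complex keeps exported and newly made membrane proteins soluble in the cytosol, and 2 of its 3 genes fell. Bag6, the scaffold, measured 5914, 6652 and 6843 with DMSO and 5043, 4585 and 4910 with SKI-II. Get4 (chr5:139252324-139270051), which links BAG6 to the delivery of tail-anchored proteins, measured 1018, 1162 and 1284 with DMSO and 752, 790 and 787 with SKI-II. Both were lower in every treated library. Get4 had a log2 fold change of -0.57 ± 0.13 (adjusted p = 0.00609). Bag6 had -0.42 ± 0.12 (adjusted p = 0.0217), a call lost without DMSO 2, DMSO 3 or SKI-II 2 (adjusted p = 0.0544 to 0.0953). Ubl4a, the ubiquitin-like subunit, gave 0.13 ± 0.12 (adjusted p = 0.422). It shares 8.21% of its exon bases with Slc10a3 on the same strand, which rose by 1.61 on the log2 scale.

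Ratios of 2 genes within a library, which do not depend on scaling between libraries, were compared for 14 pairs of partners and paralogs. The groups did not overlap for 9 of them, each with an exact permutation p of 0.1 (two-sided, adjusted p = 0.156), which is the smallest that 3 against 3 libraries allow. The pairs were chosen with earlier results known and no share over other gene pairs was computed, and of single genes 24.8% were higher and 25.5% lower without overlap, so the count of 9 is not read as particular to these pairs. Edem1 outnumbered Edem2 by 5.66, 5.71 and 4.25 times in the counts of DMSO 1 to 3 and by 2.46, 2.07 and 1.99 times with SKI-II. The ratio of Rnf5 to Rnf185 went from 3.46, 2.85 and 3.29 to 0.986, 1.28 and 1.44. Neither ratio overlapped between the groups, and their mean log2 ratios differed by -1.25 and -1.39.

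The ratio of Vcp to its cofactor gene Ufd1 was 15.5, 12.1 and 16.04 with DMSO and 8.53, 8.06 and 7.83 with SKI-II (difference of the mean log2 ratio -0.83), and that of Vcp to Syvn1 was 14.6, 16.1 and 14.7 against 6.09, 6.49 and 8.09 (-1.14). In every treated library Vcp was lower beside these partners than in any vehicle library. Other partners were divided. The ratio of Sel1l to Syvn1 was 5.65, 6.79 and 5.55 against 6.02, 6.07 and 7.87, with overlap (difference 0.14, exact permutation p = 0.5), and that of Bag6 to Get4 (0.15, exact permutation p = 0.2) overlapped narrowly, by 5.81 in DMSO 1 against 5.80 in SKI-II 2. The ratios of Ufd1 to Nploc4 (0.36) and Vcp to Nsfl1c (-0.34) did not overlap, each with the exact permutation p of 0.1.

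The other pairs were related genes. Faf1 to Faf2 (-0.61), Ube2j1 to Ube2j2 (0.48) and Edem1 to Edem3 (-0.29) differed without overlap, each again with that p. Os9 to Erlec1 (0.23) and Derl1 to Derl2 (-0.25) overlapped (exact permutation p = 0.2 each, adjusted p = 0.215). Herpud1 to Herpud2 (0.69, exact permutation p = 0.2) overlapped, since the ratio in DMSO 3, 1.35, lay above the 1.27 of SKI-II 3.

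**Figure D4:**
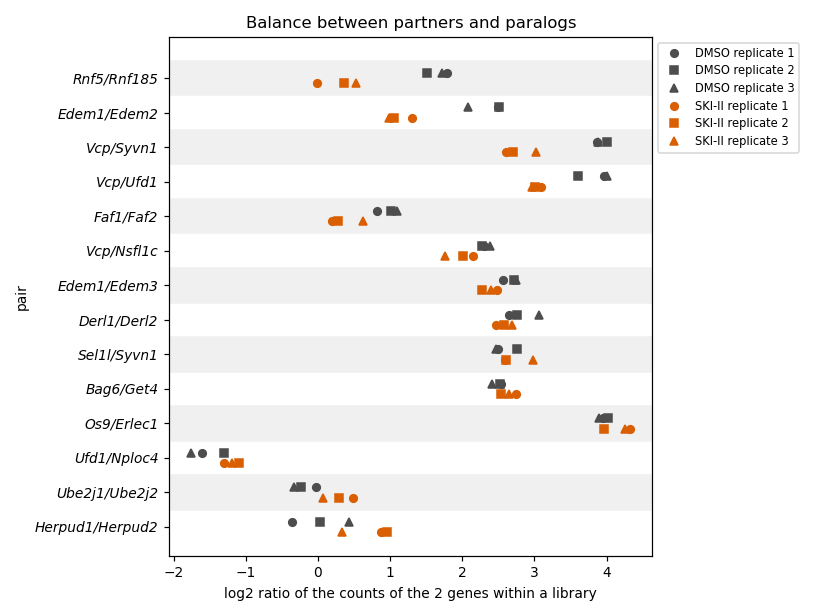
Log2 ratio of the counts of 2 genes (x axis) within each library (points) for the 14 pairs (rows, ordered by the difference between the groups). The 6 points of Rnf5/Rnf185, Edem1/Edem2, Vcp/Syvn1 and Vcp/Ufd1 separate by group, and those of Sel1l/Syvn1 overlap.

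Levels of different genes were compared as normalized counts per kb of exon. With DMSO the highest member was Vcp at 1817 ± 79.6 (SD, n = 3), followed by Os9 at 1667 ± 164 and Derl1 at 1412 ± 189, and Vcp and Os9 differed by less than the SD of Os9. With SKI-II Os9 was first at 3497 ± 149, above Derl1 at 2560 ± 16.8 and Vcp at 2091 ± 330. Sel1l moved from place 16 (407 ± 20.2) to place 4 (1146 ± 198), Edem1 from place 4 to place 10, Bag6 from 5 to 11 and Get4 from 11 to 21. Svip was the lowest member tested at 6.06 with DMSO and 6.12 with SKI-II, and the span from the highest member to it was 299.8-fold with DMSO. The places depend on the length used. Per kb of the longest transcript, Vcp was still first with DMSO, but Bag6 came before Os9, and with SKI-II Vcp (3059 ± 483) came before Derl1 (2683 ± 17.6).

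**Figure D5:**
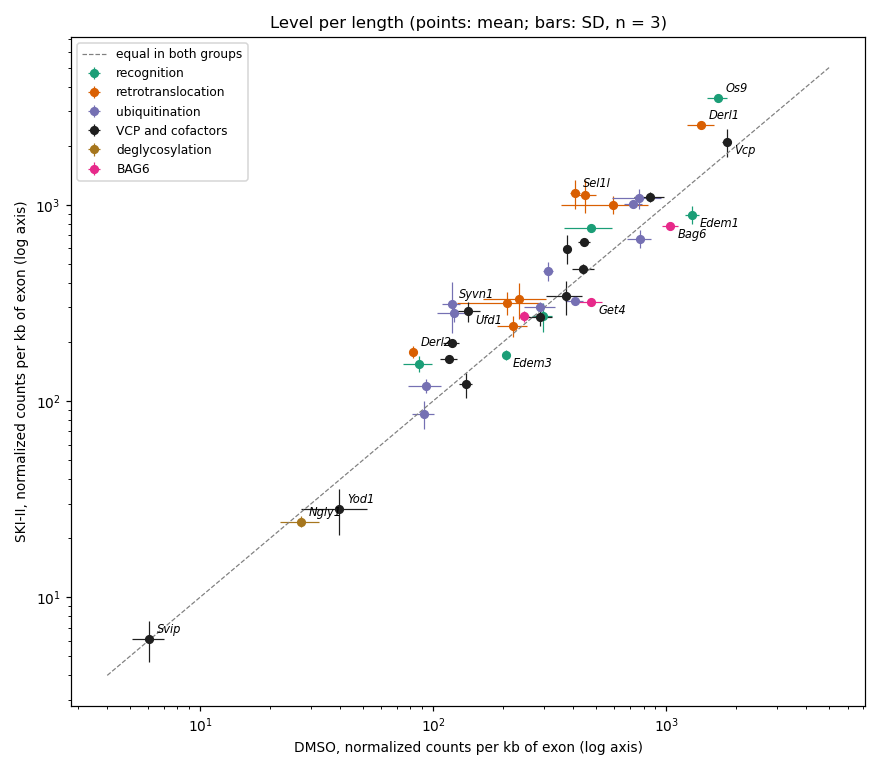
Mean level per kb of exon with DMSO (x axis) and with SKI-II (y axis), both in normalized counts on log axes, for each tested member, coloured by step (bars, SD, n = 3, dashed line, equal levels). Os9, Derl1 and Sel1l lie above the line, Vcp lies near it, and Edem1, Bag6 and Get4 lie below it.

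Other genes of the same pathway, in a list of 39 that does not share a gene with the 42, had calls in both directions. Of the 37 tested, 13 rose, 8 fell and 16 did not pass, beside 18.4% higher and 19.7% lower of all genes, with a median log2 fold change of 0.11. The largest rises were those of Wfs1, for the ER membrane protein wolframin (175 ± 36.3 to 1016 ± 361 normalized counts, 2.53 ± 0.26, adjusted p = 9.7e-05), of Hm13, the signal peptide peptidase (1.22 ± 0.15, adjusted p = 0.000248), and of Zfand2a, the arsenite-inducible zinc finger protein (1.15 ± 0.19, adjusted p = 0.00145). The largest falls were those of the ER chaperone gene Dnajb14 (-1.10 ± 0.14, adjusted p = 0.000265), Txndc16 (-0.95 ± 0.24, adjusted p = 0.0111) and the Golgi mannosidase gene Man1a (-0.65 ± 0.16, adjusted p = 0.00941). Among 20 further genes for VCP-binding proteins, 19 were tested, of which 2 rose, 3 fell and 14 did not pass (median -0.02), both counts below those shares of all genes. Ubxn8 (1.31 ± 0.20, adjusted p = 0.000818) and the ubiquitin chain elongation factor gene Ube4a (0.90 ± 0.24, adjusted p = 0.0151) rose. Those that fell were Gps1, a COP9 signalosome subunit gene (-0.82 ± 0.15, adjusted p = 0.00206), Ube4b (-0.53 ± 0.15, adjusted p = 0.0216) and Wrnip1 (-0.46 ± 0.13, adjusted p = 0.0194). In each of these lists the genes named are the called ones with the largest changes.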

How the data were processed

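The authors selected poly(A) RNA with oligo(dT) beads and prepared libraries with the NEBNext Ultra II RNA kit. Per the submitters' processing notes, they used Trimmomatic 0.36, STAR 2.5.2b, featureCounts of Subread 1.5.2 and DESeq2. The table used here, deposited by the authors, holds raw read counts per Ensembl gene for the 6 libraries. The sources used here do not give the genome build, annotation or strand setting. Groups and replicate numbers came from the labels, the dose from the methods and the time from a figure legend of the study.

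GENCODE M21 named 49056 of the 49315 identifiers, and the 259 others held 0.0102% of the counts. Counts were tested with edgeR 4.0.16 in R 4.3.3 (quasi-likelihood test, TMM scaling, expression filter by group, 10 counts at least and 15 in total, Benjamini-Hochberg adjustment over 12274 genes). Calls had an adjusted p below 0.05, and a stricter rule added a log2 fold change beyond 1. Normalized counts are scaled to the mean effective library size of 16042438. Pair ratios used 0.5 added to each count. No libraries of a group agreed within sampling noise. Common variation between libraries was 17.5% (coefficient of variation).

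Every member is named, with values in every library for those called and for Vcp. From each other list of pathway genes the 3 called genes with the largest rise and the 3 with the largest fall are named. The members, steps, pairs, motifs and lists were chosen with earlier results of these data known. The alternatives were DESeq2 1.42.0, limma-voom (limma 3.58.1), RLE scaling, library size alone, no filter, at least 10 counts in every library, the replicate block, a prior count of 2 and leaving out each library. The fits were tested on simulated data with 200 genes changed, each by more than any member changed here. Recovery of smaller changes was not tested. Overlaps of exons and lengths come from GENCODE M21. Promoter sequence is from RefSeq.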

Additional observations from a re-analysis of the deposited data

How the results depend on the processing

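No called member changed direction in any of the 14 alternatives. Of the 18 members called higher, 15 were called in all of them (the others were Herpud1, Ube2g2 and Faf2), and of the 4 called lower only Get4 was. DESeq2, limma-voom, RLE scaling, library size alone, a prior count of 2 and the stricter filter (10 counts or more in each library) each kept all 22 calls and added 0 to 2, which were Ubac2 or Ubxn1. Without a filter, March6 was lost, so that 0 ubiquitination members were called lower. Leaving out 1 library at a time kept 17 to 20 of the 22 calls. The count of members called lower then ran from 1 (without SKI-II 2) to 4 (without DMSO 1), with 2 without DMSO 2 and without DMSO 3. For recognition it was 0 to 1, for ubiquitination 0 to 1 and for the BAG6 complex 1 to 2. The cause of these losses was not tested. Beyond a log2 fold change of 1, 6 or 7 members were called higher in every alternative. The main fit used no block, since the study compared the groups without a covariate. Same-numbered libraries deviated from their group means with correlations of 0.234, 0.018 and 0.437, and DMSO 1 correlated best with SKI-II 2 (0.274). These values do not settle whether the numbers mark pairs. With the replicate number as a block, 21 members were called higher and 4 lower, the additions being Rhbdd1, Ubac2 and Ubxn1, and over all genes the block also raised the genes called higher from 2255 to 2765 and the genes called lower from 2413 to 2819. In 2 alternatives chosen after seeing the data, 17 members were called higher without Ubxn6, and 16 higher and 4 lower without members that share 20% or more of their exon bases with another gene. The median log2 fold change of all genes lay between -0.01 and 0.02 in every alternative.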
